A study of Schizosaccharomyces pombe
Saccharomyces cerevisiae with 16 samples.

Results

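SCR1, RPR1 and snR52 are noncoding RNAs, other than tRNA, made by RNA polymerase III in budding yeast (Saccharomyces cerevisiae). They were taken as the rows of both deposited tables whose gene name or identifier is SCR1, RPR1 or snR52. All 3 were found, among 6859 genes in the table of newly synthesized RNA and 6805 in the table of total RNA, and all 3 passed the filter on low counts in both. The study degraded Med14 or Med17, subunits of the Mediator coactivator of RNA polymerase II, and measured RNA afterwards. A Med14 and a Med17 strain were used, each 1 line of mating type MATalpha. Both expressed the rice F-box protein OsTIR1 from the pGPD1 promoter at his3 and carried the alleles ura3Δ0, trp1Δ63, met15Δ0, lys2Δ0, leu2Δ0, his3Δ200 and ade2Δ::hisG. One had an IAA7 degron on Med14 (strain label OsTIR1 MED14-IAA7) and the other on Med17 (OsTIR1 MED17-IAA7), so that auxin would send the tagged subunit to the proteasome. One label of the Med17 samples gives the tagged gene as MED14, but the strain and source labels give Med17, and these were followed.

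In each strain the groups were 500 µM auxin for 30 min and, as the control, the carrier DMSO for 30 min. All cultures then received 5 mM 4-thiouracil (4tU), a uracil analogue incorporated into new transcripts, for 6 min. Cells of fission yeast (S. pombe) were mixed in, 3 parts to 1 part of S. cerevisiae, before RNA was extracted. RNA carrying 4tU was purified to give newly synthesized RNA, called new RNA here, and the unpurified extract gave total RNA. The 8 groups had 2 libraries each, which the design text calls biological replicates. A strain with OsTIR1 and no degron was not analysed here, so effects of auxin itself and of losing the subunit cannot be told apart. In RNA from whole cultures, fewer cells and less RNA per cell cannot be told apart either.

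RNA polymerase III transcribes tRNA genes and a small set of other short, structured RNAs, and RNA polymerase II, which Mediator serves, transcribes the messenger RNAs. SCR1 is the RNA of the signal recognition particle, which targets secretory proteins to the endoplasmic reticulum. RPR1 is the RNA of nuclear RNase P, which trims the 5′ leader of precursor tRNAs. snR52 is a box C/D small nucleolar RNA (snoRNA), a guide for ribose methylation of ribosomal RNA, and is exceptional among yeast snoRNAs in being made by RNA polymerase III. Because they are made by another polymerase, such RNAs are candidates for a reference when messenger RNA changes globally.

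All 3 genes lie on chromosome V of the sacCer3 build. SCR1 spans chrV:441987-442508, which is 522 bases annotated as ncRNA. RPR1 spans chrV:117667-118035, which is 369 bases annotated as ncRNA, and snR52 spans chrV:431129-431220, which is 92 bases annotated as snoRNA. No other annotated gene of the tables overlaps any of them. Raw totals were 3829864 to 13962332 counts per library of new RNA and 3304205 to 8841065 per library of total RNA. Values below are the authors' normalized counts, in which 1 constant per library multiplies every raw count. Fold changes (log2) use those constants unless TMM is named. TMM is a scaling that assumes most genes do not change. On the authors' scale the log2 fold change of the median gene tested was -1.86 in new RNA of the Med14 strain, -2.71 in new RNA of the Med17 strain, -0.76 in total RNA of the Med14 strain and -1.38 in total RNA of the Med17 strain. Under TMM these medians were 0.022, -0.043, -0.061 and -0.16.

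The 3 genes kept one order of level in every library. Per kilobase of annotated length, SCR1 had 62306 to 179389 normalized counts in the 8 libraries of new RNA, RPR1 16954 to 36823 and snR52 1346 to 8177. In total RNA, SCR1 had 412831 to 656742 normalized counts per kilobase, RPR1 24924 to 64147 and snR52 776 to 6797. The ranges of the 3 genes did not overlap within either kind of RNA. How well RNAs of different length and uracil content were recovered was not tested. SCR1 had the highest raw count of all genes in each of the 8 libraries of total RNA, where it took 3.86% to 8.0% of all counts. In new RNA it ranked 1 in each of the 4 auxin libraries, against ranks 8 to 16 in the DMSO libraries.

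In 5 of the 8 groups the replicates differed in the same direction in all 3 RNAs, and in each of them by more than the median absolute difference over genes, which was 0.155 to 0.218 on the log2 scale. New RNA of the Med14 strain with auxin had log2 differences, replicate 1 minus replicate 2, of -0.83 for SCR1, -0.59 for RPR1 and -1.10 for snR52, where the median gene had -0.086. In new RNA of the Med17 strain with auxin, replicate 1 lay above replicate 2 by 0.55, 0.66 and 0.72 in the same gene order, where the median gene differed by 0.17. In total RNA of the Med14 strain with DMSO, replicate 1 lay above replicate 2 by 0.64, 1.00 and 0.88, where the median gene differed by -0.10. The source of these shared differences was not tested, and calls that depend on 1 of these libraries are given below with and without it. Both replicate 2 libraries of new RNA from the Med14 strain, auxin and DMSO alike, carry an extra "(2)" in their source label.

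**Figure D1:**
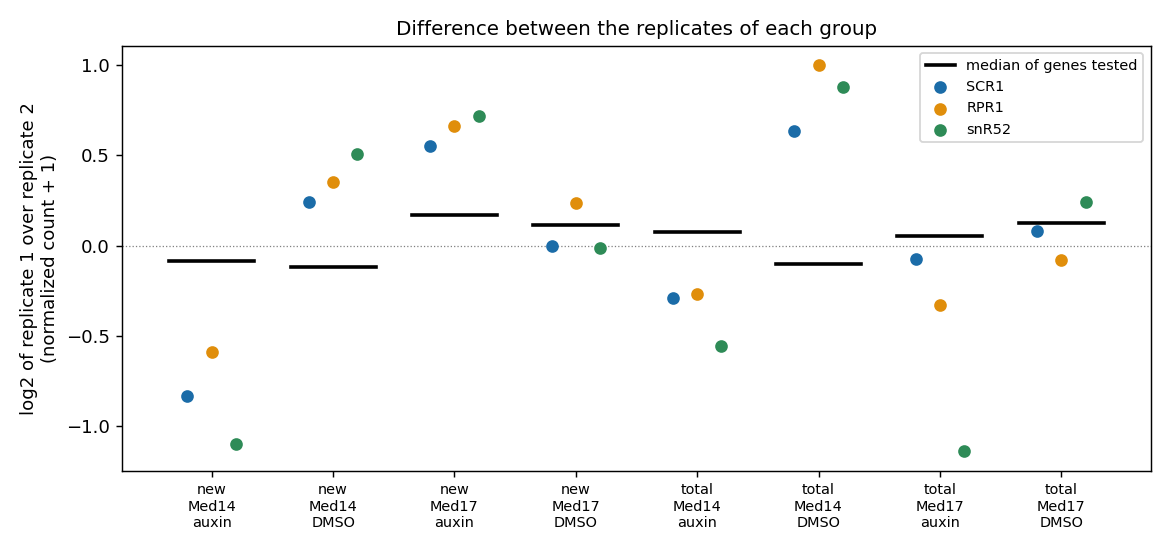
Difference between the replicates of each group for SCR1, RPR1 and snR52 (points), as log2 of replicate 1 over replicate 2 (vertical axis), beside the median of all genes tested (black bars), in the 8 groups (horizontal axis). The 3 points lie together and far from the bar in new RNA of both strains with auxin and in total RNA of the Med14 strain with DMSO.

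SCR1 fell in new RNA of the Med14 strain with auxin on the authors' scale, where TMM gave a rise, and its groups overlapped in the other 3 comparisons. SCR1 had 32524 and 57818 normalized counts in new RNA of the Med14 strain with auxin, against 93641 and 79267 with DMSO. Both auxin libraries lay below both DMSO libraries, as they did for 95.6% of genes tested, and the auxin mean was 52.2% of the DMSO mean. Its log2 fold change of -0.94 (SE 0.232) was called by edgeR's quasi-likelihood test, at a Benjamini-Hochberg adjusted p = 0.000905, in a comparison where 94.2% of genes tested were called lower. A gene was called when that adjusted p was under 0.05. Its fall was smaller than that of the median gene by 0.92 on the log2 scale, and under TMM the sign turned, to a rise of 0.91. The value was -0.58 without auxin replicate 1 and -1.41 without auxin replicate 2, and it was called in both cases.

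SCR1 in new RNA of the Med17 strain had 59814 and 40835 normalized counts with auxin, against 55384 and 55490 with DMSO. The DMSO libraries were nearly equal and lay between the auxin libraries. The log2 fold change was -0.14 (SE 0.230, edgeR adjusted p = 0.555), which was 2.57 above the median gene. Under TMM it was 2.49, and without auxin replicate 2 it was 0.11. A p above the threshold does not show that SCR1 was unchanged.

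Total SCR1 hardly differed between treatments on the authors' scale. The Med14 strain had 256788 and 314209 normalized counts with auxin, against 334847 and 215498 with DMSO, and the groups overlapped. Its log2 fold change was 0.053 (SE 0.172, edgeR adjusted p = 0.783), where 1.62% of genes tested were called higher and 75.1% lower. Without DMSO replicate 1 the value was 0.41 and was called, and without DMSO replicate 2 it was -0.23 and was not. The Med17 strain had 324633 and 341426 normalized counts with auxin, against 342820 and 324097 with DMSO. The auxin mean was 99.9% of the DMSO mean, and the log2 fold change was -0.0019 (SE 0.172, edgeR adjusted p = 0.992). Under TMM total SCR1 was called higher in both strains, by 0.74 in the Med14 strain and 1.22 in the Med17 strain. TMM called 18.7% and 26.1% of genes tested higher there.

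RPR1, like SCR1, fell in new RNA of the Med14 strain on the authors' scale, where TMM gave a rise, and it rose in new RNA of the Med17 strain under both scalings. RPR1 had 6256 and 9399 normalized counts in new RNA of the Med14 strain with auxin, against 13588 and 10638 with DMSO. The auxin libraries lay below the DMSO libraries, as for 95.6% of genes tested. RPR1 fell with a log2 fold change of -0.63 (SE 0.215, edgeR adjusted p = 0.0101), where 94.2% of genes were called lower. That value was 1.23 above the median gene, and TMM turned it to 1.22. The call was lost without auxin replicate 1 (-0.37), without DMSO replicate 1 (-0.44) and with DESeq2 on the same scale (adjusted p = 0.0703), and the value without auxin replicate 2 was -0.95.

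RPR1 in new RNA of the Med17 strain had 12428 and 7860 normalized counts with auxin, against 7638 and 6473 with DMSO. Both auxin libraries lay above both DMSO libraries, as they did for 2.45% of genes tested. The log2 fold change was 0.52 (SE 0.216, edgeR adjusted p = 0.0273), and 1.70% of genes tested were called higher there. This call rested on auxin replicate 1, without which the value was 0.16, and it was 0.82 without auxin replicate 2. It was also lost without DMSO replicate 2 (0.41) and with DESeq2 (adjusted p = 0.130). Relative to the median gene RPR1 stood 3.24 higher on the log2 scale.

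Total RPR1 was not called in either strain. The Med14 strain had 11953 and 14379 normalized counts with auxin, against 18378 and 9197 with DMSO, where the 2 DMSO libraries enclosed the auxin libraries. Its log2 fold change was -0.067 (SE 0.241, edgeR adjusted p = 0.805). It was called higher, at 0.52, without DMSO replicate 1, and lower, at -0.48, without DMSO replicate 2. The Med17 strain had 18858 and 23670 normalized counts with auxin, against 17032 and 18028 with DMSO. These groups did not overlap, and 3.45% of genes tested had both auxin libraries above both DMSO libraries. The log2 fold change was 0.28 (SE 0.241, edgeR adjusted p = 0.285). Under TMM total RPR1 had log2 fold changes of 0.61 in the Med14 strain and 1.50 in the Med17 strain, and only the second was called (edgeR adjusted p = 0.0985 and 0.000751). TMM called 26.1% of genes tested higher in total RNA of the Med17 strain.

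snR52 rose in the Med17 strain in both kinds of RNA. The new RNA of that strain held 744 and 452 normalized counts of snR52 with auxin, against 124 and 125 with DMSO. The raw counts behind these values were 1039 and 767 with auxin, against 68 and 84 with DMSO. The auxin mean was 481% of the DMSO mean, and the log2 fold change was 2.26 (SE 0.327, edgeR adjusted p = 2.62e-06). It ranked 50 from the top of 6072 genes tested, where 1.70% of genes were called higher. In total RNA of the Med17 strain it had 283 and 625 normalized counts with auxin, against 84.6 and 71.4 with DMSO. The 2 auxin libraries differed by a ratio of 2.21, and both lay above both DMSO libraries, as they did for 3.45% of genes tested. The log2 fold change was 2.56 (SE 0.365, edgeR adjusted p = 2.58e-05), at rank 47 of 5625 genes tested, where 2.42% of genes were called higher. Leaving out any 1 library gave 1.86 to 2.58 in new RNA and 1.88 to 3.02 in total RNA, all called. TMM gave 4.89 in new RNA and 3.78 in total RNA.

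In the Med14 strain snR52 was not called. Its new RNA had 297 and 636 normalized counts with auxin, against 752 and 530 with DMSO, and the groups overlapped. The log2 fold change was -0.46 (SE 0.291, edgeR adjusted p = 0.140). Without auxin replicate 2 it was -1.11 and called, and without auxin replicate 1 it was -0.0054. TMM gave 1.39, on the other side of 0 and called, where 24.9% of genes tested were called higher. Total snR52 of the Med14 strain had 141 and 208 normalized counts with auxin, against 137 and 74.0 with DMSO. Both auxin libraries lay above both DMSO libraries, as they did for 3.75% of genes tested, and the log2 fold change was 0.72 (SE 0.382, edgeR adjusted p = 0.104). It was called at 1.23 without DMSO replicate 1, at 1.40 under TMM, and when only the 4 libraries compared were fitted. TMM called 18.7% of genes tested higher in total RNA of the Med14 strain.

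**Figure D2:**
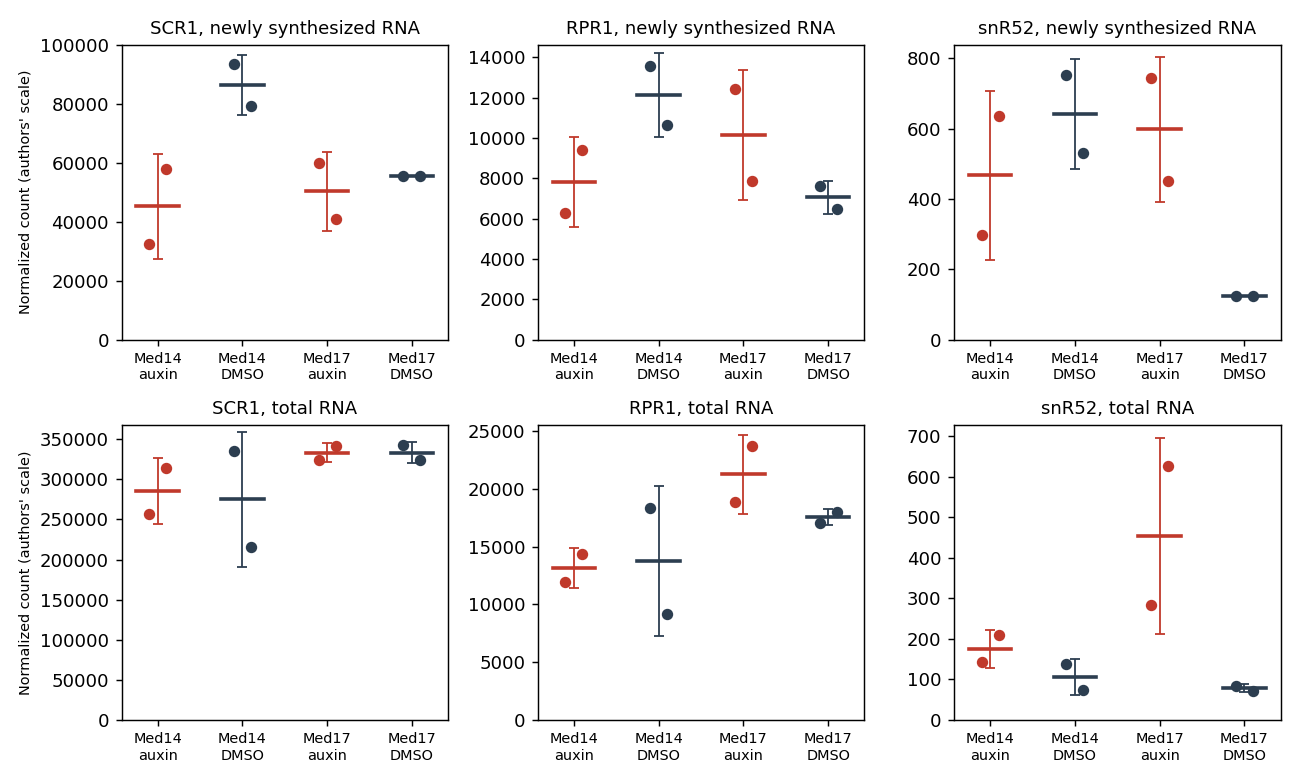
Normalized counts (vertical axes, authors' scale, from 0) of SCR1, RPR1 and snR52 in new RNA (top) and total RNA (bottom), by strain and treatment. Points are libraries, horizontal bars are means and vertical bars are SD (n = 2). snR52 of the Med17 strain stands higher with auxin in both kinds of RNA, and new SCR1 and RPR1 of the Med14 strain stand lower on this scale, a direction that TMM turns.

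The members' changes were set beside the rest of the genome in each comparison. By log2 fold change in new RNA of the Med14 strain, SCR1, RPR1 and snR52 ranked 408, 284 and 240 from the top of 6072 genes. The Med17 strain placed them at 199, 160 and 50 in new RNA. Among 5625 genes of total RNA the ranks were 383, 564 and 116 for the Med14 strain, and the Med17 strain gave 360, 203 and 47. All 3 lay above the median gene in all 4 comparisons, by 0.69 to 4.97 on the log2 scale. A constant per library cancels only approximately in this distance, because each group pools 2 libraries. RPR1 in total RNA of the Med14 strain stood 0.69 above the median gene on the authors' scale. With RPR1 as the reference that median was -0.85.

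The auxin change of new RNA was higher in the Med17 strain than in the Med14 strain for all 3. The difference, Med17 minus Med14, was 0.80 for SCR1 (SE 0.325, edgeR adjusted p = 0.0415), 1.15 for RPR1 (SE 0.305, adjusted p = 0.00364) and 2.72 for snR52 (SE 0.437, adjusted p = 8.02e-05). Here 3.28% of genes tested were called higher and 59.6% lower. The median gene had a difference of -0.82, and TMM gave 1.58, 1.94 and 3.50. The SCR1 difference was no longer called without any 1 of 6 of the 8 libraries or with DESeq2 (adjusted p = 0.160). It was 0.44 without Med14 auxin replicate 1, 0.50 without Med17 auxin replicate 1 and 1.27 without Med14 auxin replicate 2. In total RNA the differences were -0.055 for SCR1 (SE 0.243, edgeR adjusted p = 0.866), 0.35 for RPR1 (SE 0.341, adjusted p = 0.425) and 1.84 for snR52 (SE 0.530, adjusted p = 0.0174), where 1.23% of genes tested were called higher. The snR52 call was lost without Med14 DMSO replicate 1 (1.33), without Med14 auxin replicate 1 (1.58) and with DESeq2 (adjusted p = 0.0557), and the value was 1.16 without Med17 auxin replicate 2.

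The strains already differed with DMSO. In new RNA the Med17 strain stood below the Med14 strain by log2 differences of -0.64 for SCR1 (SE 0.231, edgeR adjusted p = 0.0440), -0.78 for RPR1 (SE 0.217, adjusted p = 0.0112) and -2.36 for snR52 (SE 0.331, adjusted p = 6.47e-05). In that comparison 24.1% of genes tested were called lower. The SCR1 call was lost under TMM (-0.47), with DESeq2 (adjusted p = 0.174) and without any 1 of the 4 libraries. The RPR1 call was lost with DESeq2 (adjusted p = 0.0733), without Med14 DMSO replicate 1 (-0.59) and without Med17 DMSO replicate 2 (-0.67), and the snR52 call held in each of these fits. With auxin the same strain difference in new RNA was 0.16 for SCR1, 0.37 for RPR1 and 0.36 for snR52 (edgeR adjusted p = 0.527, 0.111 and 0.244), a contrast added after the data were seen in which 85.7% of genes tested were called. Under TMM those values were 1.11, 1.32 and 1.32, and all 3 were called (edgeR adjusted p = 0.00428, 0.000642 and 0.00598). TMM called 12.5% of genes tested higher and 11.8% lower in that contrast. On the authors' scale, all 3 were also called without Med14 auxin replicate 2, at 0.63, 0.70 and 1.01, and RPR1 without Med17 auxin replicate 2, at 0.67. Without Med14 auxin replicate 1 SCR1 and snR52 had -0.20 and -0.091, and without Med17 auxin replicate 1 they had -0.15 and -0.042. On that scale snR52 of new RNA averaged 598, 467 and 641 normalized counts in the Med17 strain with auxin and the Med14 strain with auxin and with DMSO, against 124 ± 0.800 in the Med17 strain with DMSO (SD, n = 2). In total RNA with DMSO none of the 3 was called between strains, where 15.5% of genes tested were called, at 0.28, 0.35 and -0.46 for SCR1, RPR1 and snR52 (edgeR adjusted p = 0.324, 0.385 and 0.506). In total RNA with auxin RPR1 stood higher in the Med17 strain by 0.69 (SE 0.242, edgeR adjusted p = 0.0311) and snR52 by 1.39 (SE 0.340, adjusted p = 0.00721), where 1.92% of genes tested were called higher. Both calls were lost without Med14 auxin replicate 1 (0.56 and 1.12) and without Med17 auxin replicate 2 (0.52 and 0.71), and that of RPR1 with DESeq2 (adjusted p = 0.108). SCR1 had 0.22 there (edgeR adjusted p = 0.283), and 0.67 under TMM, which was called (adjusted p = 0.0472). TMM called 11.5% of genes tested higher in that comparison.

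**Figure D3:**
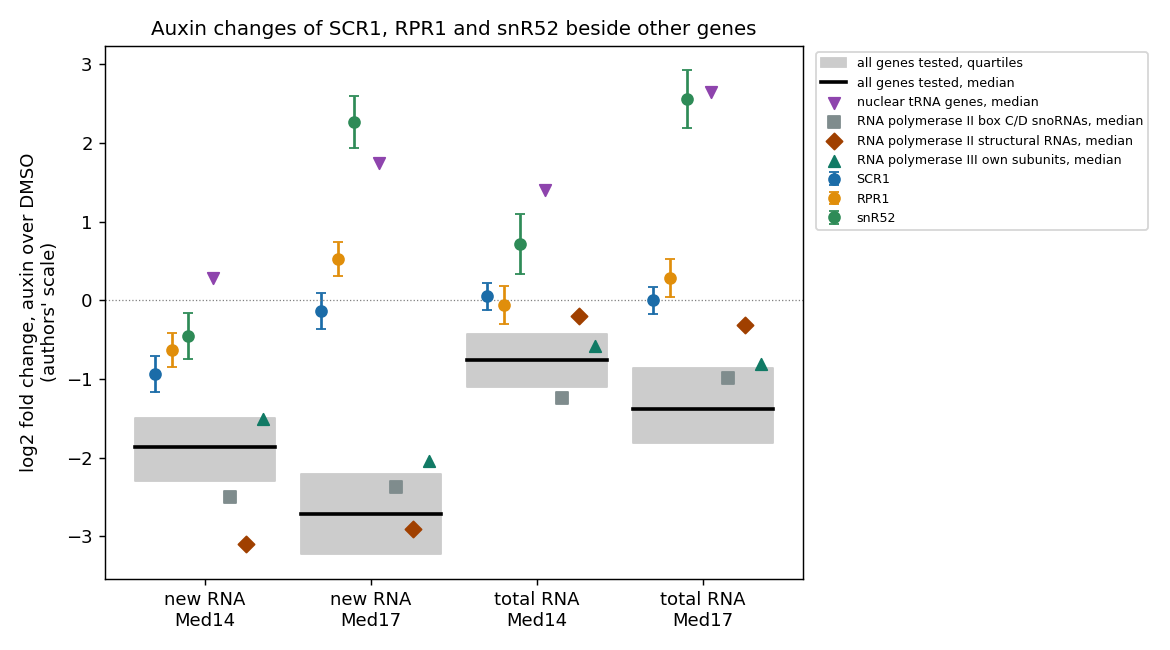
log2 fold change, auxin over DMSO, on the authors' scale (vertical axis) of SCR1, RPR1 and snR52 (circles with SE), with list medians (other symbols) and the median and quartiles of all genes tested (black line and grey box), in the 4 comparisons (horizontal axis). The circles lie above the grey box in all 4 comparisons, and snR52 lies near the tRNA median in total RNA of the Med17 strain.

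Ratios of raw counts within a library need no scaling between libraries. New RNA of the Med14 strain had 19.2 and 16.3 counts of RPR1 per 100 SCR1 counts with auxin, against 14.5 and 13.4 with DMSO. The Med17 strain had 20.8 and 19.2 with auxin, against 13.8 and 11.7 with DMSO. The ratio of RPR1 to SCR1 in new RNA thus lay higher with auxin in both strains, with no overlap between treatments. The share of all genes that separate in this way is not given here. Its largest SD was 2.11, for the ratio of RPR1 to SCR1 at a mean of 17.7 with auxin in the Med14 strain. In the fits with SCR1 as the library reference RPR1 was not called in new RNA. It had 0.35 in the Med14 strain and 0.65 in the Med17 strain (edgeR adjusted p = 0.398 and 0.0692). In total RNA the ratio of RPR1 to SCR1 was 4.65 and 4.58 with auxin, against 5.49 and 4.27 with DMSO in the Med14 strain, and the groups overlapped. In the Med17 strain total RNA had 5.81 and 6.93 with auxin, against 4.97 and 5.56 with DMSO.

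The raw ratio of snR52 to SCR1 lay higher in both auxin libraries than in both DMSO libraries in all 4 comparisons. New RNA of the Med17 strain had 12.4 and 11.1 counts of snR52 per 1000 SCR1 counts with auxin, against 2.24 and 2.25 with DMSO. The Med14 strain had 9.12 and 11 in new RNA with auxin, against 8.03 and 6.68 with DMSO. Total RNA of the Med17 strain had 0.873 and 1.83 with auxin, against 0.247 and 0.220 with DMSO. Total RNA of the Med14 strain had 0.551 and 0.663 with auxin, against 0.409 and 0.343 with DMSO. No pair of groups overlapped in this ratio. The share of all genes whose ratio to SCR1 separates in this way is not given here, so the lack of overlap cannot be judged against it. The mean ratio with auxin was 1.37 times that with DMSO at the least, in new RNA of the Med14 strain. It was 5.79 times at the most, in total RNA of the Med17 strain. With 2 libraries against 2 an exact permutation test cannot give a two-sided p below 0.33, so these ratios were not tested in that way. In the fits with SCR1 as the library reference, snR52 was not called in the Med14 strain, at 0.45 in new RNA and 0.69 in total RNA (edgeR adjusted p = 0.322 and 0.118), while the Med17 strain is given with the other references at the end.

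**Figure D4:**
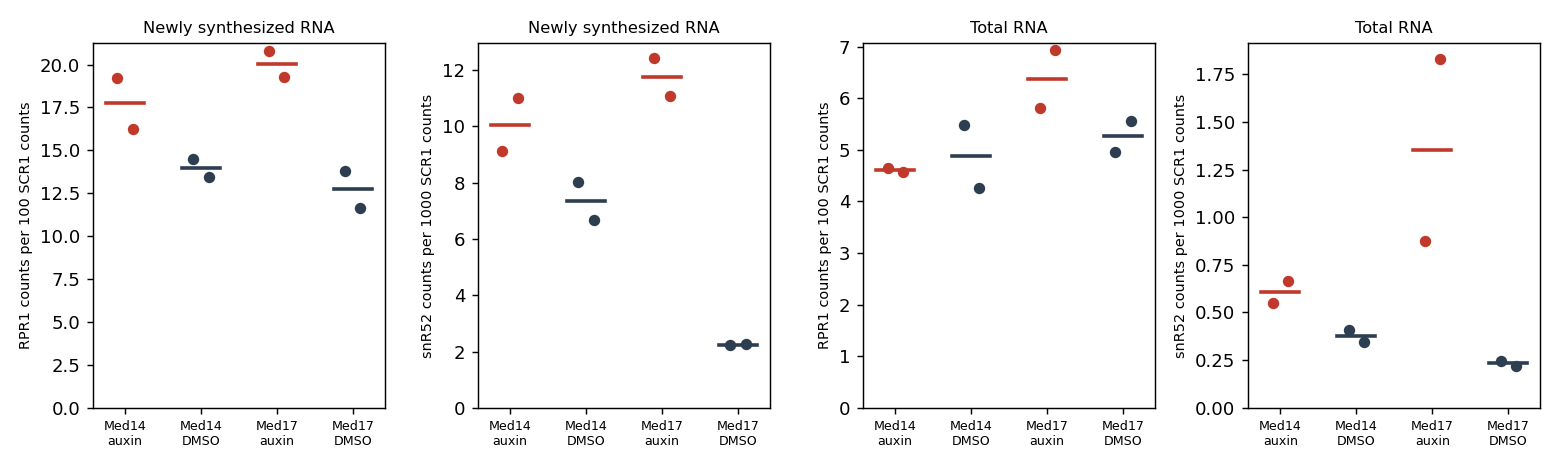
Raw counts of RPR1 per 100 and of snR52 per 1000 raw counts of SCR1 (vertical axes, from 0) in each library of new RNA (left pair) and total RNA (right pair), by strain and treatment, with means as bars (n = 2). The auxin libraries lie above the DMSO libraries in every panel and strain except for RPR1 in total RNA of the Med14 strain.

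The snoRNAs of the same class that RNA polymerase II makes were called lower in new RNA about as often as all genes were, 94.2% of which were called lower in the Med14 strain and 95.0% in the Med17 strain. Of 40 such box C/D snoRNAs in the table of new RNA 39 were tested, and 37 were called lower and 0 higher in the Med14 strain, with a median log2 fold change of -2.50. In the Med17 strain 36 of the 39 were called lower and 0 higher, with a median of -2.37. Under TMM the median was -0.63 in the Med14 strain and 0.28 in the Med17 strain. As a ratio within libraries of new RNA of the Med17 strain, snR52 had 19.9 and 16.8 counts per 100 counts of those snoRNAs together with auxin, against 0.676 and 0.710 with DMSO. The ratio in new RNA of the Med14 strain was 9.66 and 12.3 with auxin, against 2.03 and 1.55 with DMSO. In total RNA 26 of 41 tested box C/D snoRNAs were called lower in the Med14 strain (median -1.24) and 23 of 41 in the Med17 strain (median -0.99), against 75.1% and 87.4% of all genes, and none was called higher in either. Under TMM those medians were -0.48 and 0.28.

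NME1, the RNA of RNase MRP, is related to RPR1 in structure but is made by RNA polymerase II. NME1 had 267 and 486 normalized counts in new RNA of the Med14 strain with auxin, against 3596 and 3596 with DMSO. It had 322 and 258 in that of the Med17 strain with auxin, against 1916 and 1782 with DMSO. Its log2 fold changes in new RNA were -3.26 in the Med14 strain and -2.67 in the Med17 strain (edgeR adjusted p = 2.11e-10 and 7.32e-10), against -0.63 and 0.52 for RPR1. Under TMM they were -1.40 and -0.03. In total RNA NME1 was not called, at -0.31 and 0.12 (edgeR adjusted p = 0.283 and 0.671). The spliceosomal RNAs SNR14, SNR19 and LSR1, listed with NME1, were also called lower in new RNA of both strains, which makes 4 of 4 tested with medians of -3.09 and -2.90, against the 94.2% and 95.0% of all genes called lower. In total RNA 1 of the 4 was called lower in the Med14 strain and 2 of 4 in the Med17 strain (75.1% and 87.4% of all genes), with medians of -0.20 and -0.32 that TMM turned to 0.48 and 0.91.

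Nuclear tRNA genes are the main class of RNA polymerase III genes, and their counts are uncertain because many copies are near identical. Of 259 tRNA genes in the table of new RNA 129 passed the filter. In the Med14 strain 8 of these were called higher and 5 lower, with a median log2 fold change of 0.28, where 0.560% of all genes tested were called higher. In the Med17 strain 75 were called higher and 1 lower, with a median of 1.74, where the share of all genes called higher was 1.70%. Under TMM 174 passed the filter, of which 131 in the Med14 strain and 172 in the Med17 strain were called higher and 0 lower, against 24.9% and 28.5% of all genes called higher. In total RNA 66 of 257 passed the filter, of which 27 were called higher and 0 lower in the Med14 strain (median 1.40) and 63 higher and 0 lower in the Med17 strain (median 2.64), against 1.62% and 2.42% of all genes called higher. A gene could pass the filter through the auxin groups alone. Within libraries of new RNA the tRNA genes together had 7.46 and 7.39 counts per 100 SCR1 counts with auxin in the Med17 strain, against 2.30 and 1.87 with DMSO. In the Med14 strain they had 6.00 and 7.48 with auxin, against 2.61 and 3.65 with DMSO. The other RNA polymerase III transcripts listed, SNR6, RNA170, ZOD1 and RDN5-1, had at most 15.2 normalized counts in any library, too few for a comparison with the members. SNR6, the U6 RNA of the spliceosome, had a log2 fold change of -0.12 in new RNA of the Med14 strain and -0.51 in that of the Med17 strain (edgeR adjusted p = 0.864 and 0.534).

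The messenger RNAs for the RNA polymerase III machinery and for the proteins that bind these RNAs fell in new RNA on the authors' scale, as most genes did. All 10 listed subunits particular to RNA polymerase III were called lower in both strains, with medians of -1.51 in the Med14 strain and -2.04 in the Med17 strain. RET1, its second-largest subunit, fell by 1.22 in the Med14 strain, the smallest fall of that list. All 11 listed factors and regulators were called lower (medians -1.64 and -2.79), among them TFC3, a subunit of TFIIIC, at -2.28 and -3.92. All 9 RNase P proteins (medians -1.84 and -2.11) and all 8 proteins of the signal recognition particle and its receptor (medians -1.73 and -2.50) were called lower. The box C/D proteins NOP1, NOP56 and NOP58 were called lower in both strains (medians -2.31 and -2.38), and so was LHP1, the La protein that binds the 3′ ends of new RNA polymerase III transcripts (-2.38 and -2.31). Under TMM these list medians lay between -0.51 and 0.62. In total RNA 7 of 10 RNA polymerase III subunits in the Med14 strain and 8 of 10 in the Med17 strain were called lower, with medians of -0.58 and -0.81. All members of the other lists of this paragraph were called lower in total RNA of both strains. The share of all genes called lower was 94.2% and 95.0% in new RNA of the Med14 and Med17 strains, and 75.1% and 87.4% in total RNA.

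New and total RNA were compared through the ratio of their normalized counts, set against the median gene because each table has its own scale. With DMSO the log2 ratio of new to total RNA for SCR1, minus that of the median gene, was -4.19 in the Med14 strain and -4.86 in the Med17 strain. Only 7 of 5892 and 9 of 5887 genes had a lower ratio. The same difference with DMSO was -2.71 and -3.59 for RPR1, and 0.083 and -1.60 for snR52, in the Med14 and Med17 strains. With auxin it was -4.15 and -3.65 for SCR1, -2.24 and -1.99 for RPR1, and -0.080 and -0.53 for snR52. SCR1 and RPR1 thus had far less new RNA per total RNA than most genes, while the ratio of snR52 varied more between groups. In the Med17 strain with auxin the log2 ratio of snR52 was 1.39 in replicate 1 and -0.47 in replicate 2, against 0.92 for the median gene.

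The auxin change of new RNA minus that of total RNA was -0.99 for SCR1 in the Med14 strain (SE 0.346, edgeR adjusted p = 0.0152), in a joint fit of 16 libraries where 80.5% of genes were called lower. The joint fit did not pair new and total RNA by culture. The call was lost without new auxin replicate 1 (-0.63), new DMSO replicate 1 (-0.86), total auxin replicate 2 (-0.84) or total DMSO replicate 2 (-0.71), and TMM gave 0.18. RPR1 and snR52 were not called in the Med14 strain, at -0.56 and -1.18 (edgeR adjusted p = 0.175 and 0.0627). In the Med17 strain, where 85.1% of genes were called lower, none of the 3 was called, at -0.14, 0.25 and -0.30 for SCR1, RPR1 and snR52 (edgeR adjusted p = 0.709, 0.544 and 0.637). Under TMM these were 1.27, 1.66 and 1.11, of which SCR1, with its sign turned, and RPR1 were called (edgeR adjusted p = 0.0109 and 0.00525), and snR52, also turned, was not (adjusted p = 0.192). TMM called 15.8% of genes tested higher in the Med17 strain. On the authors' scale the difference of these changes between strains, added after the data were seen, was 0.85, 0.81 and 0.88 and was not called for any of them, as for all but 0.971% of genes tested (edgeR adjusted p = 0.432, 0.510 and 0.666).

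Likeness of pattern was measured over the 16 libraries as the root mean square difference of centred log2 levels, within each kind of RNA, against 4742 other genes whose mean count reached 50. The gene most like SCR1 was RPR1, at 0.247, and the gene most like RPR1 was SCR1. The next for SCR1 were YPL058C (a plasma membrane transporter, 0.387), FLO1 (a flocculation lectin, 0.389), YER081W (0.391) and YCL021W-A (0.403). The next for RPR1 were YER081W (a 3-phosphoglycerate dehydrogenase, 0.402) and the mitochondrially encoded OLI1 (0.479), COX3 (0.490) and COB (0.510). The genes most like snR52 were the tRNA genes tG(GCC)P1 (0.455) and tW(CCA)P (0.566), then YBR099C, YER097W and HRP1 (0.670 to 0.701). RPR1 ranked 8 and SCR1 20 in the list of snR52. In the other direction snR52 ranked 298 in the list of RPR1 and 2975 in that of SCR1, where its value of 0.938 lay above the median of 0.871 over genes. These values describe libraries that share depth and scaling.

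The genes beside RPR1 and snR52 fell on the authors' scale, as most genes did. Those flanking RPR1, YEL020W-A and YEL020C, had log2 fold changes in new RNA of -2.80 and -2.13 in the Med14 strain, and the Med17 strain had -3.21 and -3.39. For YER132C and GLC7, which flank snR52, they were -2.04 and -2.09 in the Med14 strain, and the Med17 strain had -3.00 and -3.23. The median gene had -1.86 and -2.71. All 4 were called lower by edgeR in new and in total RNA of both strains. Of all genes tested, 94.2% in the Med14 strain and 95.0% in the Med17 strain were called lower in new RNA. In total RNA these shares were 75.1% and 87.4%. The genes beside SCR1, YER137W-A and tI(AAU)E1, were nearly without reads and were not tested.

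Each of the 3 RNAs was then used in place of the authors' constants as the reference that sets the size of a library. With SCR1 as the reference the median log2 fold change over all genes tested was -0.84 in new RNA of the Med14 strain, -2.53 in new RNA of the Med17 strain, -0.87 in total RNA of the Med14 strain and -1.38 in total RNA of the Med17 strain. RPR1 gave medians of -1.21, -3.19, -0.85 and -1.64 in the same order, and snR52 gave -1.27, -4.90, -1.58 and -3.73. All 12 medians were below 0. This follows from the place of the 3 RNAs above the median gene in every comparison, so it is no separate result. With SCR1 the largest shift from the authors' scale was 1.02 on the log2 scale in new RNA of the Med14 strain, and in total RNA the shifts were -0.11 and -0.0018. With snR52 the shifts in the Med17 strain were -2.19 in new RNA and -2.35 in total RNA.

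The counts of called genes depended on the reference. With SCR1 as the reference 2694 of 6045 genes were called lower and 135 higher in new RNA of the Med14 strain. There RPR1 gave 4732 of 6086 lower and 102 higher, and snR52 gave 3198 of 6246 lower and 49 higher. With the authors' constants 5720 of 6072 were called lower and 34 higher. For new RNA of the Med17 strain 5696 genes were called lower with SCR1, 5842 with RPR1 and 6089 with snR52, against 5771 with the authors' constants. In total RNA of the Med14 strain 2710 were called lower with SCR1, 390 with RPR1 and 2740 with snR52, against 4225. In total RNA of the Med17 strain 4350 were called lower with SCR1, 4249 with RPR1 and 5575 with snR52, against 4914. A reference taken from 1 gene passes that gene's replicate difference on to every gene, and the DMSO replicates of total RNA from the Med14 strain differed by a ratio of 2.00 in RPR1.

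With SCR1 as the reference RPR1 was not called in any of the 4 auxin comparisons, and snR52 was called higher in the Med17 strain by 2.39 in new RNA and 2.54 in total RNA (edgeR adjusted p = 4.13e-08 and 9.00e-09). Of all genes tested, 2.08% in new RNA and 2.13% in total RNA of that strain were called higher with SCR1. With RPR1 as the reference SCR1 was called in 1 of the 4, at -0.66 in new RNA of the Med17 strain (edgeR adjusted p = 0.0212). There 96.0% of genes tested were called lower and the median gene had -3.19. With RPR1 snR52 was again called higher in the Med17 strain, by 1.72 in new RNA and 2.22 in total RNA (edgeR adjusted p = 1.30e-05 and 0.000303). The shares of all genes called higher there were 1.18% and 1.44%. With snR52 as the reference SCR1 and RPR1 were called lower in the Med17 strain, at -2.38 and -1.74 in new RNA and -2.34 and -2.12 in total RNA. In those fits 97.5% of genes in new RNA and 98.4% in total RNA were called lower. In the Med14 strain neither was called with snR52. All of these fits take the reference count as free of error, so their SE and p-values leave out its replicate difference. For snR52 with SCR1 as the reference the SE was 0.428 in new and 0.399 in total RNA of the Med17 strain. On the authors' scale the SE was smaller, 0.327 and 0.365, yet the edgeR adjusted p was larger, 2.62e-06 and 2.58e-05. The smaller p with SCR1 is therefore no stronger evidence.

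**Figure D5:**
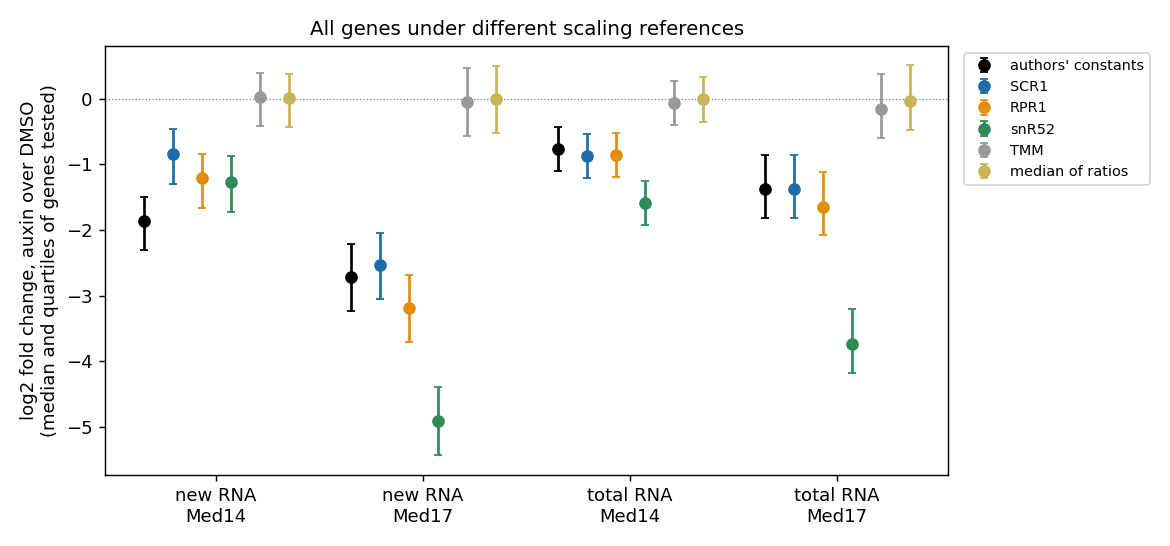
Median (points) and quartiles (bars) of the log2 fold change, auxin over DMSO, of all genes tested (vertical axis) in the 4 comparisons (horizontal axis), with libraries scaled by the authors' constants, by each of the 3 RNAs, by TMM or by median of ratios. The medians with SCR1, RPR1 or snR52 as the reference lie between -0.84 and -4.90. That all are below 0 follows from the place of these RNAs above the median gene. TMM and median of ratios place the medians near 0.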

How the data were processed

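Raw counts per gene for 16 libraries were deposited by the authors, per the file headers, with normalized counts, a signal in which 1 constant per library multiplies all raw counts. How the constants were obtained, the aligner, the counting program and its strand setting were not given in the sources used here. Bcl2fastq 2.17.1.14 and the sacCer3 build stand in the submitters' processing notes. Libraries were made with a stranded kit after ribosomal RNA removal, per the labels' protocols. The log2 fold changes and p-values that the authors deposited compare groups known by number alone, by a test no header names, and were not used.

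Raw counts were tested with edgeR 4.0.16 in R 4.3.3 (quasi-likelihood F test, two-sided, filterByExpr, 8 libraries of new or of total RNA per fit, group as the only term, library sizes set by the authors' constants). P-values were adjusted by the Benjamini-Hochberg method over all genes tested, and a gene was called at an adjusted p under 0.05. A joint fit of all 16 libraries over 5974 genes, also with group as the only term, compared new with total RNA. Any pairing of new and total RNA by culture was not in that fit, so its SE and p-values do not account for it. SE is that of the log2 fold change. The fits were tested on simulated data. The simulation gave every gene the same dispersion and no replicate difference shared within a library, so it does not test the members' SE or p-values. Gene names come from the files. RNase P, signal recognition particle and some factor genes were matched by their deposited description. The members, the gene lists and the rule for named genes (the members, list extremes, neighbours and the 5 most alike genes) were chosen with earlier results of these data known. Alternatives were TMM and median-of-ratios scaling, no filter, DESeq2 1.42.0 with the same constants, a replicate block, a fit of only the libraries compared, leaving out each library, scaling by each member and shares of raw counts. The strain comparison with auxin, the strain difference of the new minus total change, the snR52 ratios to snoRNAs and tRNAs and the match by description were added after the data were seen. No sequences are shown because no S. cerevisiae sequence was used here.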

Additional observations from a re-analysis of the deposited data

Results flagged for a closer look

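By a test of the difference itself, the auxin change was called different between the strains for SCR1, RPR1 and snR52 in new RNA. In total RNA it was called for snR52. In new RNA the Med17 change minus the Med14 change was 0.80 for SCR1, 1.15 for RPR1 and 2.72 for snR52 on the log2 scale. There 3.28% of genes tested were called higher. In total RNA the same difference was 1.84 for snR52, where 1.23% of genes tested were called higher. The calls of SCR1 in new RNA and of snR52 in total RNA were lost with DESeq2 and without some single libraries. In new RNA the strains differed with DMSO, by -0.64, -0.78 and -2.36 for SCR1, RPR1 and snR52, Med17 minus Med14. With auxin the values were 0.16, 0.37 and 0.36, and none was called on the authors' scale. Under TMM the differences with auxin were 1.11, 1.32 and 1.32, and all 3 were called by edgeR, where 12.5% of genes tested were called higher. In total RNA snR52 was called different with auxin, at 1.39, and was not called with DMSO, at -0.46. Strain and any difference in culture or library preparation between the strains cannot be told apart.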

How the results depend on the processing

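Values are log2 differences or counts of genes. Scaling moved most values. Under TMM and then under median of ratios, new RNA of the Med14 strain gave 0.91 and 0.90 for SCR1, 1.22 and 1.21 for RPR1, 1.39 and 1.38 for snR52, medians over all genes of 0.022 and 0.0059, 1478 and 1517 genes lower, and 1517 and 1445 higher. New RNA of the Med17 strain gave 2.49 and 2.53 for SCR1, medians of -0.043 and -0.0057, 1841 and 1713 genes lower, and 1733 and 1836 higher. Total RNA of the Med14 strain gave 0.74 and 0.79 for SCR1, 0.61 and 0.66 for RPR1, 1.40 and 1.45 for snR52, medians of -0.061 and -0.0089, 1073 and 927 genes lower, and 1054 and 1185 higher. Total RNA of the Med17 strain gave 1.22 and 1.34 for SCR1, 1.50 and 1.62 for RPR1, medians of -0.16 and -0.034, 1911 and 1460 genes lower, and 1469 and 1711 higher. For the strain difference of the auxin change, new RNA gave 1023 and 874 genes lower and 1092 and 1187 higher. Total RNA gave 0.48 and 0.55 for SCR1, 337 and 273 genes lower, and 473 and 581 higher. For the strain difference with DMSO, new RNA gave -0.47 and -0.46 for SCR1 and 825 and 861 genes higher, and total RNA gave 537 and 530 lower. For the new minus total change, the Med14 strain gave 0.18 and 0.11 for SCR1, 0.61 and 0.54 for RPR1, 648 and 725 genes lower, and 218 and 113 higher. The Med17 strain gave 1.27 and 1.19 for SCR1, 1.66 and 1.58 for RPR1, 1.11 and 1.03 for snR52, 875 and 1006 genes lower, and 950 and 675 higher.

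For the strain difference with auxin, a contrast chosen after the data were seen, TMM and median of ratios gave 1.11 and 1.18 for SCR1, 1.32 and 1.39 for RPR1 and 1.32 and 1.38 for snR52 in new RNA, and 0.67 and 0.74 for SCR1 in total RNA, all called. The shares of genes tested called higher there were 12.5% and 15.8% in new RNA, and 11.5% and 14.6% in total RNA.

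As shares of raw counts, the log2 ratio of auxin to DMSO means was 1.14, 1.45 and 1.61 for SCR1, RPR1 and snR52 in new RNA of the Med14 strain, 2.42 for SCR1 in new RNA of the Med17 strain, 0.27 for RPR1 in total RNA of the Med14 strain and 0.52 for SCR1 in total RNA of the Med17 strain, against values below 0 on the authors' scale.

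With 1 member as the reference, values are given for SCR1, RPR1 and snR52 in turn, where they moved. The medians over all genes in new RNA of the Med14 strain were -0.84, -1.21 and -1.27. New RNA of the Med17 strain gave -2.53, -3.19 and -4.90. Medians in total RNA were -0.87 (SCR1) and -1.58 (snR52) in the Med14 strain and -1.64 (RPR1) and -3.73 (snR52) in the Med17 strain. In new RNA of the Med14 strain 2694 (SCR1) and 3198 (snR52) genes were lower and 135 (SCR1) and 102 (RPR1) higher, and in the Med17 strain 3 (snR52) were higher. In total RNA of the Med14 strain 2710, 390 and 2740 were lower and 48, 18 and 2 higher. In total RNA of the Med17 strain 81 (RPR1) and 1 (snR52) were higher.

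With DESeq2, 19 genes were higher in new RNA of the Med14 strain, and 7 calls were lost at nearly the same values. These were -0.63 and 0.52 for RPR1 in new RNA of the Med14 and Med17 strains, 0.80 for SCR1 in the strain difference of new RNA, -0.64 for SCR1 and -0.78 for RPR1 between the strains with DMSO, 1.82 for snR52 in the strain difference of total RNA and 0.69 for RPR1 between the strains with auxin in total RNA. Without a filter 209 genes were higher in total RNA of the Med17 strain. A fit of only the libraries compared called snR52 in total RNA of the Med14 strain, at 0.72. The cause of these changes was not tested.

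Replicate numbers are shared between treatments, with 2 pairs per comparison, and same-numbered auxin and DMSO libraries deviated together with r of 0.116 to 0.255 over genes. The labels do not say that a number marks a shared culture or day. The replicate block turned the sign of SCR1 in total RNA of the Med17 strain, to 0.00046, and changed no other call or direction among the members.

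Leaving out each library in turn gave these ranges where a call or direction changed, with a lone library assumed to vary like the other groups. RPR1 ranged from -0.95 to -0.37 in new RNA of the Med14 strain, 0.16 to 0.82 in new RNA of the Med17 strain and -0.48 to 0.52 in total RNA of the Med14 strain. SCR1 ranged from -0.44 to 0.11 in new RNA of the Med17 strain, -0.23 to 0.41 in total RNA of the Med14 strain and -0.042 to 0.039 in total RNA of the Med17 strain. snR52 ranged from -1.11 to -0.0054 in new RNA and 0.34 to 1.23 in total RNA of the Med14 strain. The strain difference of the auxin change ranged from 0.44 to 1.27 for SCR1 in new RNA, and in total RNA from -0.41 to 0.23 for SCR1, -0.24 to 0.76 for RPR1 and 1.16 to 2.31 for snR52. The strain difference with DMSO ranged in new RNA from -0.76 to -0.52 for SCR1 and -0.95 to -0.59 for RPR1, and in total RNA from -0.0060 to 0.63 for SCR1, -0.068 to 0.93 for RPR1 and -0.83 to 0.055 for snR52. The strain difference with auxin ranged in new RNA from -0.20 to 0.63 for SCR1, 0.0061 to 0.70 for RPR1 and -0.091 to 1.01 for snR52, and in total RNA from 0.52 to 0.85 for RPR1 and 0.71 to 1.85 for snR52. The new minus total change ranged in the Med14 strain from -1.46 to -0.63 for SCR1, -1.15 to -0.15 for RPR1 and -1.83 to -0.72 for snR52, and in the Med17 strain from -0.44 to 0.11 for SCR1, -0.12 to 0.54 for RPR1 and -0.76 to 0.38 for snR52.

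Counts of genes called ranged from 19 to 64 higher in new RNA of the Med14 strain, 61 to 112 higher in new RNA of the Med17 strain and 53 to 109 higher in total RNA of the Med14 strain. For the strain difference of the auxin change they ranged from 106 to 244 higher in new RNA, and from 41 to 112 higher and 1408 to 2247 lower in total RNA. For the strain difference with DMSO they ranged from 201 to 317 higher and 552 to 1368 lower in new RNA, and from 280 to 394 higher and 86 to 397 lower in total RNA. For the new minus total change they ranged from 0 to 5 higher in the Med14 strain and 3 to 17 higher in the Med17 strain.

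Under each of these alternatives with a test the rise of snR52 in the Med17 strain, in new and in total RNA, kept its direction and its call throughout. Depth limits snR52 most, with 64 to 1039 raw counts per library.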
